A study of Mus musculus with 12 samples.

Results

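The comparison set livers of mice given Eleutheroside E (EE), a plant lignan glycoside, against untreated livers of the same diet model of metabolic dysfunction-associated steatohepatitis (MASH). Its members were chosen by treatment label alone and are 6 of the 12 liver samples of the series, 3 with EE and 3 without. All mice were C57BL/6J, an inbred laboratory strain, studied for 12 weeks. The MASH mice ate a high-fat diet and, from week 8, were given vehicle (0.5% CMC-Na, a cellulose thickener) by mouth for 4 weeks. The EE mice had the same diet and the same 8 weeks of model building, and then EE by mouth at 100 mg/kg for 4 weeks. Control mice on normal chow were given vehicle and are shown as levels beside both groups, and another group on resmetirom (3 mg/kg) enters only the fit of all 12 samples. Polyadenylated RNA of liver tissue was sequenced from stranded libraries as 150-base pairs. The labels give neither the sex of the mice nor whether replicates were separate animals, so p-values measure only the spread between these samples, which may be technical.

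MASH is a fatty liver disease in which fat stored in hepatocytes is joined by inflammation, macrophage infiltration and collagen deposits made by stellate cells. Hepatocytes also make most plasma proteins, which are folded in the endoplasmic reticulum (ER) before secretion, and they carry the enzymes of glucose, amino acid, lipid and drug metabolism. Many of these genes follow pituitary growth hormone pulses, adrenal glucocorticoids, feeding and the time of day. In RNA from whole tissue, fewer cells of a type and less RNA per cell cannot be told apart.

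The 6 libraries held 17297864 to 21033066 counts. All 12 hepatocyte markers checked against the labelled tissue had enough counts to be tested, and albumin alone took 6.45% to 8.24% of the counts. No pancreatic acinar or mesothelial marker had enough counts to be tested. Log2 levels of the 3 EE livers correlated across genes at 0.978 to 0.980 with each other, and those of the 3 MASH livers at 0.980 to 0.984. The major urinary proteins, the Serpina1 family and the 50 most abundant genes took a larger part of the EE libraries. Albumin (6.73% to 6.96% with EE and 6.45% to 8.24% in MASH) overlapped between the groups. The apolipoproteins overlapped as well, at 4.48% to 4.78% with EE and 4.52% to 5.35% in MASH. The major urinary proteins held 11.3%, 11.5% and 11.7% of counts with EE and 4.43%, 10.8% and 3.33% in MASH 1, MASH 2 and MASH 3. The 50 most abundant genes held 40.2% to 41.5% with EE and 33.0% to 38.1% in MASH. With scaling by the library totals alone, the median log2 fold change over all genes was −0.31, against −0.02 with the scaling used here (the trimmed mean of M values), 23% of genes were called, and 4.11% of these were higher in place of 52.4%. Changes are therefore given relative to that scaling. Control 1 stood apart from its group, with 35.4% of its counts from mitochondrially encoded transcripts against 4.26% and 4.38% in the other controls.

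Of the 13248 genes tested in the 6 livers, 746 (5.63%) passed edgeR's quasi-likelihood test at an adjusted p below 0.05, and are called in what follows. EE livers were higher for 391 of them (2.95% of the tested genes) and lower for 355 (2.68%). In all 746 the 3 EE values lay on one side of the 3 MASH values, as they also did in 4405 tested genes (33.3%). Most changes were modest. The called genes included 52 that were at least 2-fold higher and 119 that were at least 2-fold lower. The remaining 339 higher genes had a median log2 fold change of 0.53.

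The count depended strongly on which livers entered the fit. When all 12 samples shared a single estimate of the spread, 1 gene was called (0.00715% of 13988 tested), Glcci1, with 1048 genes at an unadjusted p below 0.05, and the biological coefficient of variation was 0.334 against 0.172 in the 6 livers. With control 1 and resmetirom 2 left out of that fit, 67 genes were called (0.472%). Without EE 2, EE 3, MASH 1 or MASH 2 the 6-liver fit called 11, 18, 33 and 121 genes (0.0806%, 0.132%, 0.245% and 0.902%), and without EE 1 or MASH 3 it called 720 (5.32%) and 786 (5.87%). DESeq2 called 1495 (11.3%) and limma voom 552 (4.17%). A replicate block raised the count to 2745 (20.7% of the tested genes, with 1400 or 10.6% higher and 1345 or 10.2% lower), and offsets for transcript length and GC content reduced it to 479 (233 higher and 246 lower, 3.62%), of which 369 were among the 746.

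**Figure D1:**
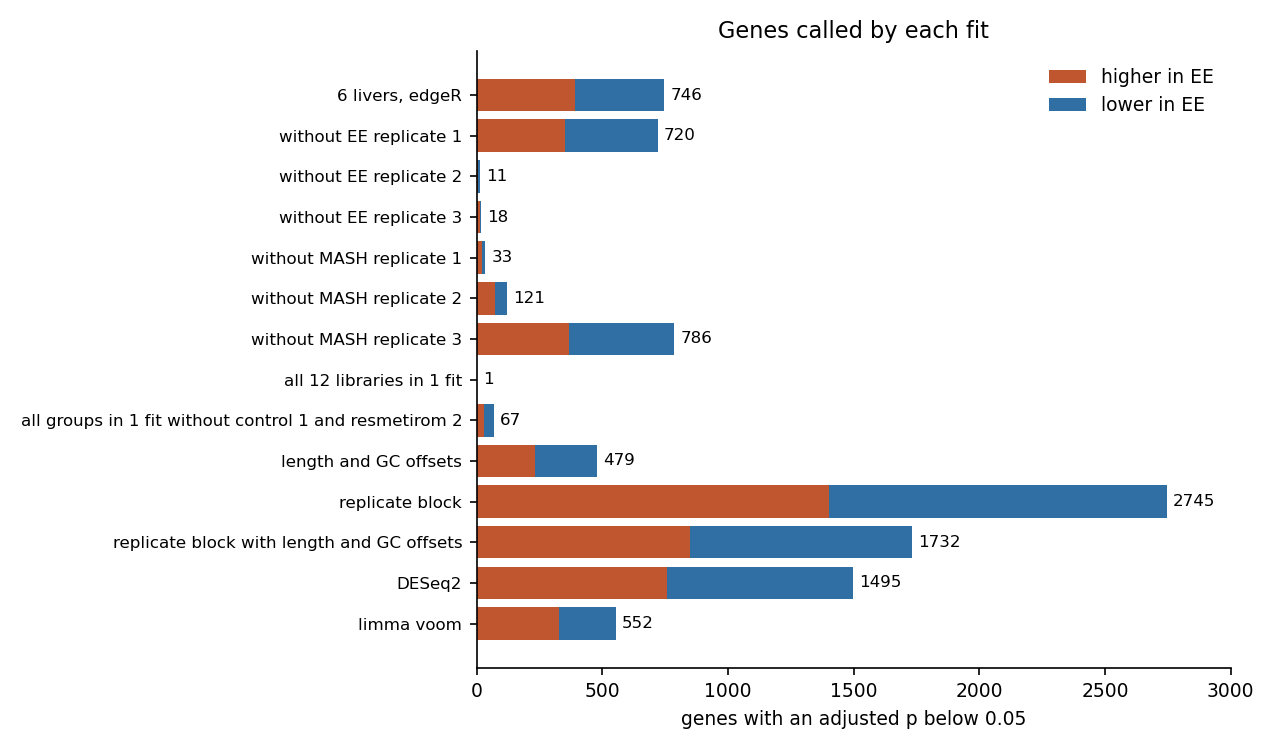
Number of genes with an adjusted p below 0.05 (horizontal axis) in each fit of EE against MASH (rows), split by direction, with the total printed at the end of each bar. The fit of 6 livers called 746 genes, the fit of all 12 called 1, and the fits of 5 livers called between 11 and 786.

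**Figure D2:**
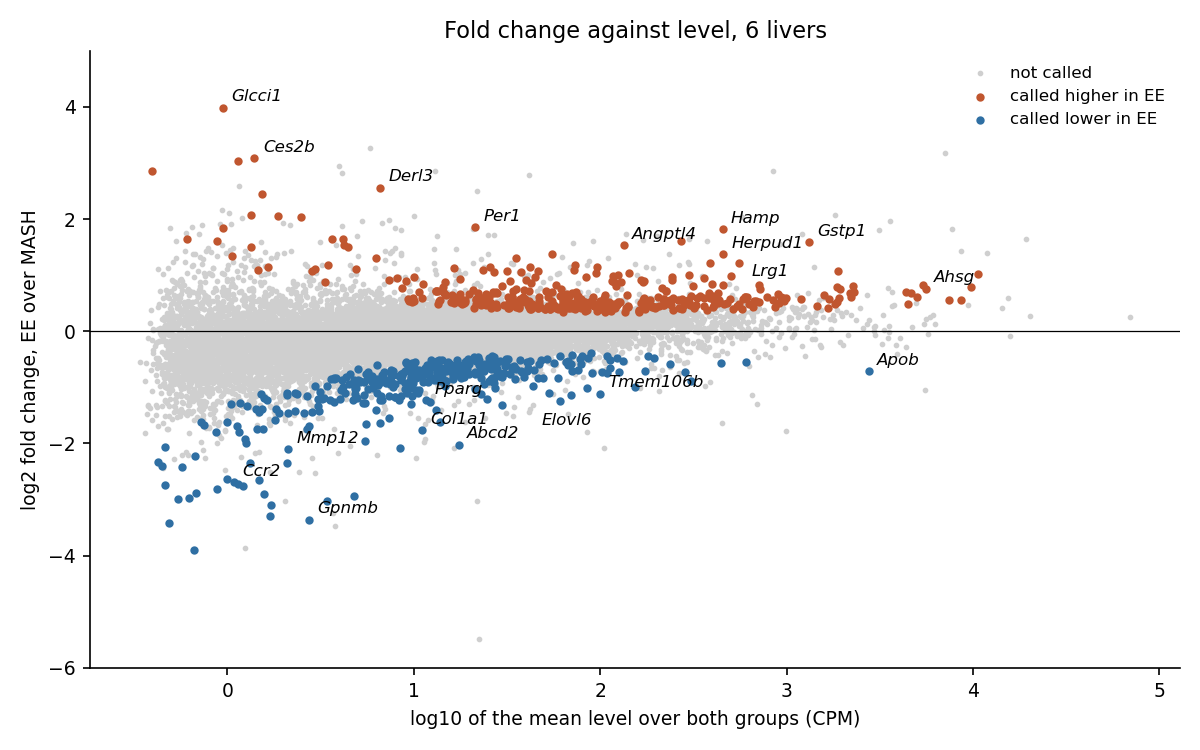
Log2 fold change of EE over MASH (vertical axis) against the mean level of both groups in CPM on a log10 scale (horizontal axis), 1 point per tested gene. Called genes are coloured by direction, and named points are genes described in the text, with Glcci1 at the top and Gpnmb among the lowest.

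Among the called genes, 8 passed in every fit of 5 livers and with edgeR, DESeq2 and limma voom alike, 5 of them higher and 3 lower with EE. Glcci1, a transcript named for its induction by glucocorticoids, showed the highest fold change of the named genes. Its level in CPM (counts after scaling every library to the same size) was 1.61, 2.17 and 1.61 in EE 1, EE 2 and EE 3 and 0.102, 0.136 and 0.0845 in MASH 1, MASH 2 and MASH 3. The fitted difference was 15.8-fold (log2 fold change 3.99 ± 0.41 SE, edgeR adjusted p = 0.0082), from low counts, 92 over the EE livers and 7 over the MASH livers. Controls stood at 3.36, 2.46 and 1.7 CPM, so that MASH livers were the low group and each EE liver lay nearer to the controls than to MASH.

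Angptl4 codes for a secreted inhibitor of lipoprotein lipase that is induced by fasting, fatty acids and glucocorticoids. It measured 163, 207 and 227 CPM with EE and 77.6, 67.8 and 60.5 CPM in MASH, a 2.9-fold rise (log2 fold change 1.54 ± 0.14 SE, edgeR adjusted p = 0.0082) to above the control values of 124, 113 and 108 CPM. Lrg1, a leucine-rich plasma glycoprotein made by hepatocytes in the acute phase response, rose from 309.9, 357 and 338 to 761, 894 and 676 CPM (log2 fold change 1.21 ± 0.12 SE, edgeR adjusted p = 0.0082). Controls were at 334, 324 and 199.5 CPM, near or below the MASH level. Herpud1, an ER membrane protein that serves in the degradation of misfolded proteins, was at 655, 542 and 775 CPM with EE and 287, 236 and 239.6 CPM in MASH (log2 fold change 1.37 ± 0.15 SE, edgeR adjusted p = 0.0082). The ribonuclease angiogenin (Ang), another secreted liver protein, was at 180.2, 229 and 166 against 94.5, 93.8 and 91.7 CPM (log2 fold change 1.04 ± 0.13 SE, edgeR adjusted p = 0.0148).

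The 3 genes lower in every such fit had different roles. Abcd2, which carries very long-chain fatty acids into peroxisomes and is more abundant in female than male mouse liver, fell from 33.4, 22.3 and 28.4 CPM in MASH to 8.03, 5.1 and 7.56 CPM (log2 fold change −2.02 ± 0.21 SE, edgeR adjusted p = 0.0082), a 4.06-fold difference. Pde4b, a phosphodiesterase that degrades cyclic AMP, fell from 16.8, 18.9 and 21.9 to 6.48, 8.03 and 7.25 CPM (log2 fold change −1.41 ± 0.14 SE, edgeR adjusted p = 0.0082). Tmem106b, a lysosomal membrane protein, fell from 147, 140.0 and 124 to 71.6, 58.9 and 59.7 CPM (log2 fold change −1.11 ± 0.11 SE, edgeR adjusted p = 0.0082), below all controls (104, 138 and 171 CPM). The spread within each group was small against these differences, and no liver of a group reached the other group.

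**Figure D3:**
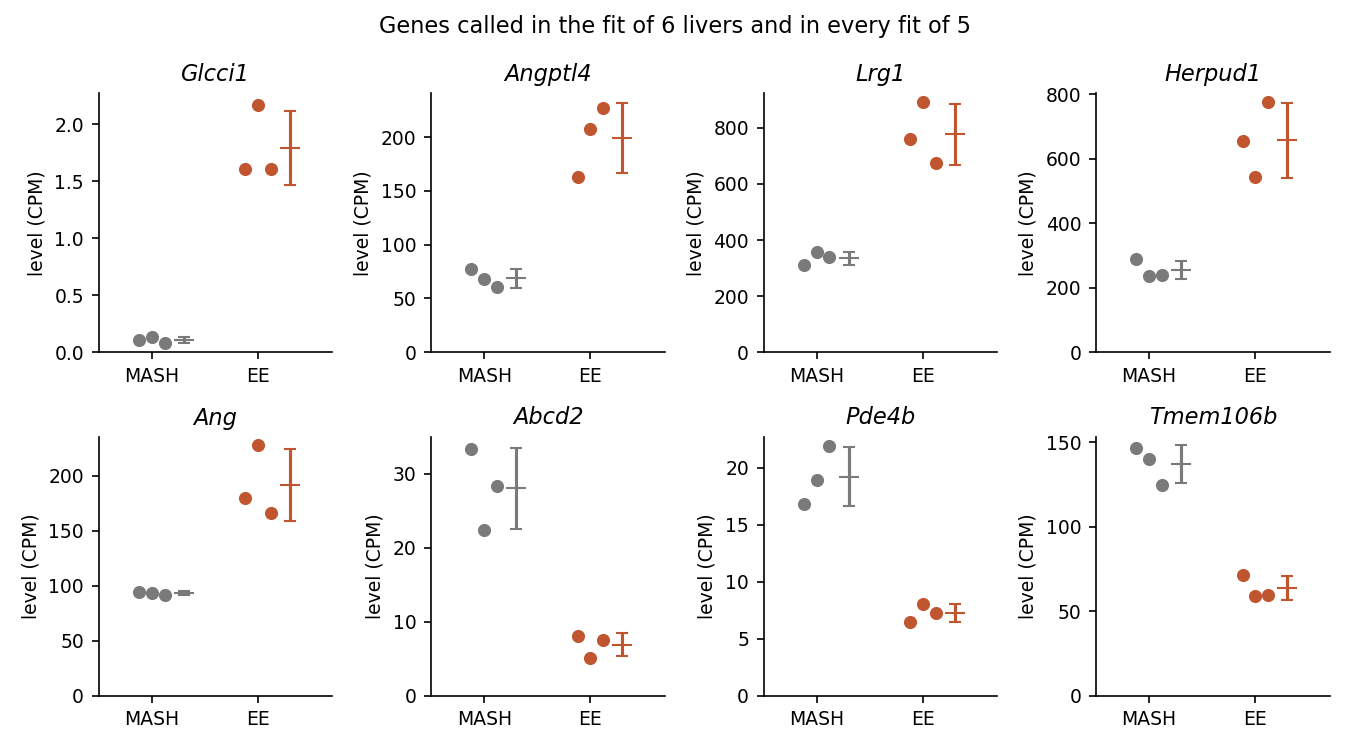
Level in CPM (vertical axes, linear from 0) of the 8 genes called in the fit of 6 livers and in every fit of 5, with a point for each MASH (grey) and EE (orange) liver and the mean with its SD beside the points. In each panel the 3 EE points are separate from the 3 MASH points.

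Another 4 genes missed the threshold in a single fit of 5, the one without EE 2. Pdia5, a protein disulfide isomerase of the ER (log2 fold change 1.07 ± 0.12 SE, edgeR adjusted p = 0.00948; 0.0585 without EE 2), and Serpina11, a secreted serpin (log2 fold change 0.97 ± 0.12 SE, edgeR adjusted p = 0.0148; 0.0597), were higher with EE. Butyrylcholinesterase (Bche), a plasma esterase, fell from 97.8, 80.8 and 77.3 to 41.7, 33.7 and 33 CPM (log2 fold change −1.24 ± 0.13 SE, edgeR adjusted p = 0.0082; 0.0585). The fatty acid elongase Elovl6 fell from 82.3, 104 and 102 to 48.1, 42.7 and 39.9 CPM (log2 fold change −1.14 ± 0.12 SE, edgeR adjusted p = 0.0082; 0.0585), which left EE livers below every control (94.3, 149.6 and 97.2 CPM).

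Several genes of protein folding and quality control in the ER were called higher with EE. Of 27 genes of the unfolded protein and integrated stress response, 5 were called higher (Herpud1, Pdia6, Sdf2l1, Chac1 and Calr) and 0 lower, against 5.63% of all genes in either direction, and the list's median log2 fold change was 0.42 against −0.02 over all genes, with 5 members negative. The median was 0.11 without EE 1 and 0.22 without MASH 3, and 0.13 with library totals alone, which called 3 members higher and 3 lower. Fits without EE 2, EE 3 or MASH 2 called 1 member, and the fit without MASH 1 called 2. Derl3, not on the list, which with Herpud1 serves the export of misfolded proteins from the ER, was at 6.87, 19.4 and 7.5 CPM with EE and 1.33, 1.9 and 2.45 CPM in MASH (log2 fold change 2.56 ± 0.48 SE, edgeR adjusted p = 0.0363). Chac1, a glutathione-degrading enzyme induced through ATF4, was at 3.77, 8.9 and 6.39 against 1.59, 2.04 and 2.41 CPM (log2 fold change 1.65 ± 0.32 SE, edgeR adjusted p = 0.031). EE 2 had the highest level of both genes, and the lowest EE liver of each exceeded the highest MASH liver.

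The abundant ER chaperone calreticulin (Calr) rose from 817, 711 and 762 to 1249, 1115 and 1074 CPM (log2 fold change 0.59 ± 0.11 SE, edgeR adjusted p = 0.0291), and the disulfide isomerase Pdia6 from 255, 262 and 225 to 342, 370.4 and 356 CPM (log2 fold change 0.53 ± 0.10 SE, edgeR adjusted p = 0.0291). The best known gene of this response, the ER chaperone Hspa5, did not differ beyond its spread. It stood at 1227, 518 and 703 CPM with EE and 917, 524 and 390.3 CPM in MASH (log2 fold change 0.42 ± 0.45 SE, edgeR adjusted p = 0.59), with overlapping groups. The calls of Derl3, Chac1, Calr and Pdia6 were lost without EE 2, EE 3, MASH 1 or MASH 2 (adjusted p from 0.0597 to 0.135), and that of Derl3 also without MASH 3 (0.0629) and with length and GC offsets (0.0527). With the block, 8 members of the list were called higher and 1 lower.

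The promoters of Derl3, Calr and Pdia6 carry a spaced element of this response, and they are printed to show it in genes that rose. The ER stress response element was searched as CCAAT and CCACG with 9 bases between them on both strands, after the values had been seen, in RefSeq promoter windows of GRCm38.p6 that span 250 bases before to 50 bases after a start site. Of 359 windows of called higher genes (288 of the 391 genes matched), 3 held it (0.836%), as did 0 of 350 windows of called lower genes, 18 of 12588 windows of tested genes (0.143%) and 39 of all 32851 windows (0.119%). The element lies 156 to 138 bases before the start of Derl3 (chr10:75893148-75893447, plus strand), 162 to 144 before that of Calr (chr8:84846882-84847181, minus strand) and 98 to 80 before that of Pdia6 (chr12:17266339-17266638, plus strand). Capitals mark the match, which in Derl3 and Calr is on the opposite strand. A match describes the letters and not a bound site, and 4 genes of this response that were not called, Hspa5, Dnajc3, Creld2 and Hsp90b1, hold it too.
Derl3: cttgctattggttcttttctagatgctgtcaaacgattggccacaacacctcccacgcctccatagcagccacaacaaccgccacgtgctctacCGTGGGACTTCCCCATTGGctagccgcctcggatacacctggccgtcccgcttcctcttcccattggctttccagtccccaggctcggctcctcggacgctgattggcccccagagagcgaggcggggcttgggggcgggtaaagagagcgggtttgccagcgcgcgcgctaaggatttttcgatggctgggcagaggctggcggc
Calr: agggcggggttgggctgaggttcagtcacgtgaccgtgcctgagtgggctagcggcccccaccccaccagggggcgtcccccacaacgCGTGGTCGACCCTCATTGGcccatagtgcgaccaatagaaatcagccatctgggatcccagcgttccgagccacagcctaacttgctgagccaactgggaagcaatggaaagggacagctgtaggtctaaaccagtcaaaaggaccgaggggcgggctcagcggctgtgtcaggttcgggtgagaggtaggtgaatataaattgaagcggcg
Pdia6: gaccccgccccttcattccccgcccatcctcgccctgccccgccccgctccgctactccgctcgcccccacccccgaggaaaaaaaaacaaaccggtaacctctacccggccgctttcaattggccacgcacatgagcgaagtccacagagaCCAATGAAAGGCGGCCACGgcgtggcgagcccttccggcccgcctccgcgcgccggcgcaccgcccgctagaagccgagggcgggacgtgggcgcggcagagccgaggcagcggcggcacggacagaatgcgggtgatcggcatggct

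Some other motifs also differed in share between the classes. The STAT5 site (TTCNNNGAA) was in 10% of windows of called higher genes, 5.71% of called lower and 6.98% of tested genes, and the TATA box (TATAAA) in 12.3%, 7.14% and 7.86%. Over all 32851 windows these shares were 8.3% and 13.6%. The glucocorticoid response element (GNACA and TGTNC with 3 bases between them) was in 1 window of called higher genes (0.279%), 3 of called lower (0.857%) and 0.318% of those tested. The PPAR direct repeat and the heat shock element were each in 4 windows of called higher genes (1.11%) and 1 of called lower (0.286%). Over tested genes they were in 0.302% and 0.469%. The E-box of clock proteins (CACGTG) was in 9.75%, 10.3% and 9.85%, the D-box in 1.67%, 2.86% and 1.62%, and the SREBP element in 1.11%, 0.571% and 1.14%. These are shares of letters in short windows, with no test.

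Of 20 heat shock genes, 3 were called higher and 0 lower (15%, against 5.63% of all genes). A positive log2 fold change was seen in 19, with a list median of 0.42. With library totals alone the median was 0.13, with 1 called higher and 1 lower. The called genes were Hspe1, which codes for the mitochondrial co-chaperonin and not a cytosolic one (log2 fold change 0.46 ± 0.10 SE, edgeR adjusted p = 0.0357), Ahsa1, an activator of HSP90 (log2 fold change 0.45 ± 0.10 SE, edgeR adjusted p = 0.0358), and Dnajb1, a co-chaperone of HSP70 (log2 fold change 1.08 ± 0.23 SE, edgeR adjusted p = 0.0428). Dnajb1 was at 41.6, 29.8 and 57.2 CPM with EE and 23.6, 19.8 and 17.5 CPM in MASH, EE 3 being highest and EE 2 lowest. With a block Dnajb1 was not called (0.0667), while 8 members of the list were. With offsets none of the 3 was called (0.0505, 0.0516 and 0.0545). All 3 were lost without EE 2, EE 3, MASH 1 or MASH 2 (0.0597 to 0.127), Ahsa1 and Dnajb1 also without EE 1 (0.0629 and 0.0701), and Dnajb1 without MASH 3 (0.0944).

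Of 18 glucocorticoid-induced genes 3 were called higher (Glcci1, Zbtb16 and Per1) and 0 lower (16.7%, against 5.63% of all genes). Of the 18, 13 were positive, with a list median log2 fold change of 1.02. The median was 0.52 without EE 2. The count was 6 without EE 1, 1 without EE 2 or EE 3 and 2 without any 1 of the MASH livers, and with the block 3 were called higher and 2 lower. Zbtb16, a zinc finger transcription factor, was at 6.2, 5.92 and 6.76 CPM with EE and 2.41, 1.9 and 2.2 CPM in MASH (log2 fold change 1.54 ± 0.19 SE, edgeR adjusted p = 0.0148), still below the controls at 8.03, 27 and 33.9 CPM. The clock gene Per1, a direct glucocorticoid target that also cycles with the time of day, was at 18.6, 36.7 and 45.3 CPM with EE and 9.89, 11.4 and 6.38 CPM in MASH (log2 fold change 1.86 ± 0.38 SE, edgeR adjusted p = 0.0477). EE 1 lay well below the other EE livers, and controls were at 11.4, 23.5 and 32 CPM. The median of the list differed between livers of a group, at 0.26, 1.29 and 0.75 log2 units above the MASH mean in EE 1, EE 2 and EE 3 and at 0.17, −0.01 and −0.27 in the MASH livers.

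Genes of gluconeogenesis and insulin signalling included 2 called of 26 (7.69%, against 5.63% of all genes). Foxo1, the insulin-restrained transcription factor of gluconeogenesis, was at 41.1, 55.6 and 67.5 CPM with EE and 29.4, 28.4 and 32.1 CPM in MASH (log2 fold change 0.87 ± 0.17 SE, edgeR adjusted p = 0.031). Pck1, which makes phosphoenolpyruvate for gluconeogenesis, was at 1808, 2734 and 3151 CPM with EE and 1421, 1301 and 923 CPM in MASH (log2 fold change 1.08 ± 0.23 SE, edgeR adjusted p = 0.0423). The list as a whole had a median of 0.09, which became −0.21 with library totals alone. With the block Per1 (0.110) and Pck1 (0.118) were not called, nor were they with offsets (0.0712 and 0.0779). Per1, Foxo1 and Pck1 were lost without EE 2, EE 3, MASH 1 or MASH 2 (0.0772 to 0.159), Per1 and Pck1 without MASH 3 (0.0826 and 0.0668), and Zbtb16 without EE 2 or EE 3 (0.0585 and 0.0538). Labels give no hour of collection, and clock genes moved in both directions, with Per1 called higher and the nuclear receptor Rora lower (log2 fold change −0.84 ± 0.19 SE, edgeR adjusted p = 0.0401) among 19 (10.5% called, against 5.63% of all genes). Rora was lost without EE 2, EE 3, MASH 1 or MASH 2 (0.104 to 0.126).

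Among transcripts of plasma proteins and hepatocyte identity, 4 of 12 hepatocyte markers were called higher and 0 lower (33.3%, against 5.63% of all genes). All 12 hepatocyte markers were positive (median log2 fold change 0.40), 10 without overlap between groups against 17% of all genes. Fetuin-A (Ahsg), a secreted glycoprotein, was at 5939, 8331 and 6777 CPM with EE and 4022, 4287 and 4135 CPM in MASH (log2 fold change 0.76 ± 0.14 SE, edgeR adjusted p = 0.0291). Hnf4a, the nuclear receptor that maintains hepatocyte identity, was at 566, 686 and 531 against 438, 373 and 382 CPM (log2 fold change 0.58 ± 0.12 SE, edgeR adjusted p = 0.0358). The plasma protein precursor Ambp (log2 fold change 0.49 ± 0.10 SE, edgeR adjusted p = 0.031) and the asialoglycoprotein receptor subunit Asgr1 (log2 fold change 0.39 ± 0.09 SE, edgeR adjusted p = 0.0435) rose less. The 3 EE livers had list medians of 0.39, 0.40 and 0.40 log2 units above the MASH mean. The median with library totals alone was 0.11, and 1 marker was then called. With offsets, Ambp (0.0737), Asgr1 (0.106) and Hnf4a (0.124) were not called, and without EE 2, EE 3, MASH 1 or MASH 2 none of these 4 genes was (0.0723 to 0.155), nor was Asgr1 without EE 1 (0.0693) or Hnf4a without MASH 3 (0.0597). With the block 9 of the 12 were called.

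Hepatocyte markers of the zones of the lobule were listed separately. Of 13 periportal markers 3 were called higher (23.1%, against 5.63% of all genes), and the median was 0.32. Among the 3 was the urea cycle enzyme Cps1, at 2363, 3406 and 2770 CPM with EE and 1785, 1604 and 1861 CPM in MASH (log2 fold change 0.70 ± 0.15 SE, edgeR adjusted p = 0.0338). Another was Cyp2f2, a periportal cytochrome P450 (log2 fold change 0.55 ± 0.10 SE, edgeR adjusted p = 0.0291). Of 13 pericentral markers 1 was called higher, Cyp1a2 (7.69%, against 5.63% of all genes), and the median was −0.11. Cyp1a2, which oxidises caffeine and other aromatic compounds, was at 462, 730.5 and 802 CPM with EE and 303, 367 and 342 CPM in MASH (log2 fold change 0.98 ± 0.20 SE, edgeR adjusted p = 0.0341). Controls lay above EE 1 at 1478, 818 and 638 CPM. The difference between the zones was not tested. With offsets Cyp2f2 (0.0774) and Cyp1a2 (0.0505) were not called. Cps1, Cyp2f2 and Cyp1a2 were lost without EE 2, EE 3, MASH 1 or MASH 2 (0.0772 to 0.117), and Cyp1a2 also without MASH 3 (0.0709).

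The acute phase list, plasma proteins of the liver of which not all are raised in inflammation, held 3 called higher and 0 lower of 23. That is 13%, against 5.63% of all genes. The median was 0.44 (0.28 without EE 2), and 7 were negative. Without overlap 10 were higher and 3 lower, against 17% and 16.3% of all genes. Itih3 and Itih4 code for heavy chains of inter-alpha-trypsin inhibitor, which bind hyaluronan. Itih3 was at 899, 1007 and 843 CPM with EE and 515, 495 and 540.2 CPM in MASH (log2 fold change 0.83 ± 0.10 SE, edgeR adjusted p = 0.0181), and Itih4 at 2471, 2284 and 2498 against 1315, 1280 and 1718 CPM (log2 fold change 0.75 ± 0.13 SE, edgeR adjusted p = 0.0291). Serum amyloid A4 (Saa4), an apolipoprotein of high-density lipoprotein, was at 304, 546 and 349.7 against 177, 225 and 195 CPM (log2 fold change 1.01 ± 0.22 SE, edgeR adjusted p = 0.0428). Hepcidin (Hamp), the peptide hormone that blocks iron release into blood, had a larger change, at 523, 978 and 624 CPM with EE and 148, 249 and 202 CPM in MASH (log2 fold change 1.82 ± 0.29 SE, edgeR adjusted p = 0.0294). Control 1 had 2342 CPM of Hamp and the other controls 356 and 226 CPM. The transferrin receptor Tfrc, which takes up iron and is named here after its values were seen, went the other way, at 9.47, 4.1 and 7.87 CPM with EE and 17.4, 17 and 17.1 CPM in MASH (log2 fold change −1.26 ± 0.26 SE, edgeR adjusted p = 0.0359). The MASH livers were close together and EE 2 was lowest.

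These calls rested on several livers. Hamp, Itih4, Saa4 and Tfrc were lost without EE 2, EE 3, MASH 1 or MASH 2 (0.0516 to 0.141), Hamp, Saa4 and Tfrc without MASH 3 (0.059, 0.0928 and 0.0669), and Itih3 without EE 2 or MASH 1 (0.0597 and 0.0546). With offsets Saa4 (0.0596) and Tfrc (0.0724) were not called. With the block, 8 acute phase genes were called higher.

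Lipoprotein genes were called in both directions. Of 26 genes of lipoprotein assembly and clearance, 5 were called higher (Angptl4, Apom, Lcat, Apoa1 and Apoc4) and Apob lower (23.1%, against 5.63% of all genes). The list median of 0.28 became −0.01 with library totals alone. The balance of calls turned as well, with 2 higher and 6 lower under library totals and 4 and 4 without EE 1. Apom, the carrier of sphingosine 1-phosphate in high-density lipoprotein, was at 197, 248 and 206 CPM with EE and 129.9, 107 and 108 CPM in MASH (log2 fold change 0.92 ± 0.12 SE, edgeR adjusted p = 0.0181). Lcat, which esterifies cholesterol in high-density lipoprotein, was at 438, 456 and 498 against 308, 273 and 348 CPM (log2 fold change 0.58 ± 0.12 SE, edgeR adjusted p = 0.031). Apob, the scaffold protein of very low-density lipoprotein, fell from 3650, 3580 and 3090 to 2265, 1885 and 2156 CPM (log2 fold change −0.71 ± 0.12 SE, edgeR adjusted p = 0.0258). Of the 5 higher genes, 3 have products in high-density lipoprotein (Apom, Lcat and Apoa1), while Angptl4 and Apoc4 were higher as well. A difference between classes of lipoprotein was not tested. Apob was not called with offsets (0.0565). Apom, Lcat and Apob were lost without EE 2 or EE 3 (0.0538 to 0.0884), and Lcat and Apob also without MASH 1 or MASH 2 (0.0705 to 0.0979). With the block, 12 were called higher and 4 lower.

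All calls in the lists of lipid synthesis and lipid droplets were lower with EE. Of 25 genes of fatty acid and triglyceride synthesis, 4 were called lower and 0 higher (16%, against 5.63% of all genes). The median log2 fold change was −0.44 (−0.21 without MASH 3), 7 were positive, and with the block 11 were called lower and 1 higher. None was called without EE 2, and 1 without EE 3, MASH 1 or MASH 2. Beside Elovl6, these were Scd2, a stearoyl-CoA desaturase, at 2.44, 3.46 and 3.66 CPM with EE and 9.53, 6.74 and 6.93 CPM in MASH (log2 fold change −1.28 ± 0.22 SE, edgeR adjusted p = 0.0284), and Elovl2, an elongase of polyunsaturated fatty acids, at 512, 441 and 522 against 744, 730.1 and 679 CPM (log2 fold change −0.55 ± 0.10 SE, edgeR adjusted p = 0.0295). Gpam, the mitochondrial acyltransferase that starts triglyceride assembly, fell from 422, 371 and 409 to 245, 156 and 250.3 CPM (log2 fold change −0.88 ± 0.17 SE, edgeR adjusted p = 0.0323). EE 2 was lowest for Gpam and Elovl2. Fatty acid synthase (Fasn) was at 451, 222 and 524 CPM with EE and 915, 757 and 1279 CPM in MASH (log2 fold change −1.30 ± 0.36 SE, edgeR adjusted p = 0.0881), and it was not called by limma voom (0.0532) but was called with the block (0.00387), by DESeq2 (0.000288) and with library totals alone. Glycerol kinase (Gk), which makes glycerol 3-phosphate, fell from 142, 137 and 129.5 to 85.3, 73.2 and 85.9 CPM (log2 fold change −0.74 ± 0.10 SE, edgeR adjusted p = 0.0181).

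Of 25 genes of lipid droplets and fatty acid uptake, 2 were called lower and 0 higher (8%, against 5.63% of all genes). The median was −0.34 (−0.19 without EE 2), 9 were positive, the block called 5 lower and 2 higher, and with offsets none was called. Pparg, the fat-storage nuclear receptor that is raised in steatotic liver, was at 7.97, 5.74 and 7.32 CPM with EE and 10.8, 20 and 18.3 CPM in MASH (log2 fold change −1.22 ± 0.24 SE, edgeR adjusted p = 0.0321). The control values of 7.59, 8.44 and 6.74 CPM lay in the EE range or near it. Fabp2, a fatty acid binding protein, fell from 117, 111 and 111 to 71.9, 39.8 and 57 CPM (log2 fold change −1.01 ± 0.19 SE, edgeR adjusted p = 0.0316), with controls at 36.1, 33.1 and 46.8 CPM. The droplet protein Cidec was at 4.15, 2.34 and 8 CPM with EE and 14.3, 42.6 and 60.4 CPM in MASH, without overlap but with wide spread (log2 fold change −3.03 ± 0.73 SE, edgeR adjusted p = 0.0775). Cd36, a fatty acid transporter, was at 49.3, 18 and 47.7 CPM with EE and 142, 106 and 149.9 CPM in MASH (log2 fold change −1.79 ± 0.41 SE, edgeR adjusted p = 0.066), and it was called with the block (0.0225), by DESeq2 (0.00297), by limma voom (0.0361) and without EE 2 (0.0319). DESeq2 called Cidec as well (0.00174).

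With offsets Pparg (0.0546), Fabp2 (0.0591), Elovl2 (0.131) and Gk (0.0992) were not called. Pparg, Fabp2, Scd2, Elovl2 and Gpam were lost without EE 2, EE 3 or MASH 2 (0.054 to 0.104), the last 4 of these also without MASH 1 (0.0843 to 0.105), and Pparg, Fabp2 and Gpam without MASH 3 (0.0583 to 0.0624). Gk was lost without EE 2, EE 3 or MASH 1 (0.0538 to 0.0602).

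The lists of fatty acid oxidation and cholesterol synthesis held few calls. Angptl4 was the 1 called of 35 genes of fatty acid oxidation and PPAR alpha targets (2.86%, median −0.06), although 16 were called with the block, 8 each way. Among 25 cholesterol genes 12% were called, against 5.63% of all genes. The sterol desaturase Sc5d was lower, at 379.5, 331 and 365 CPM with EE and 578, 557 and 451 CPM in MASH (log2 fold change −0.56 ± 0.12 SE, edgeR adjusted p = 0.0357). The sterol enzymes Tm7sf2 (log2 fold change 0.37 ± 0.09 SE, edgeR adjusted p = 0.0454) and Ebp (log2 fold change 0.38 ± 0.09 SE, edgeR adjusted p = 0.0481) were higher, so that enzymes of the same pathway were called in opposite directions. With offsets Tm7sf2 (0.249) and Ebp (0.0863) were not called, and all 3 were lost without EE 2, EE 3, MASH 1 or MASH 2 (0.0953 to 0.160), Tm7sf2 and Ebp also without EE 1 (0.0671 and 0.0569) or MASH 3 (0.0719 and 0.0549). Of 22 bile acid genes 1 was called (4.55%, against 5.63% of all genes). The sterol 27-hydroxylase Cyp27a1 was higher, at 586, 475 and 548 against 358, 388 and 402 CPM (log2 fold change 0.49 ± 0.11 SE, edgeR adjusted p = 0.0393). It was not called with offsets (0.106) or without EE 1, EE 2, EE 3, MASH 1 or MASH 2 (0.0734 to 0.139).

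Drug-metabolising enzymes were called higher in 6 of 32 cases and lower in 0 (18.8%, against 5.63% of all genes). The list held 10 negative members. Without overlap 12 were higher and 5 lower, against 17% and 16.3% of all genes. Its median was 0.15, 0.07 without EE 3, and −0.14 with library totals alone, which called 4 higher and 4 lower. Cyp3a13, a cytochrome P450, was at 161, 186 and 162 CPM with EE and 105, 104 and 114 CPM in MASH (log2 fold change 0.65 ± 0.10 SE, edgeR adjusted p = 0.023). The carboxylesterase Ces2a was at 197, 237 and 237 CPM with EE and 129.5, 128 and 101 CPM in MASH (log2 fold change 0.90 ± 0.13 SE, edgeR adjusted p = 0.0209), and controls were higher at 781, 490.0 and 432 CPM. Its neighbour in sequence Ces2b was at 2.6, 1.35 and 3.6 CPM with EE and 0.154, 0.407 and 0.296 CPM in MASH (log2 fold change 3.09 ± 0.48 SE, edgeR adjusted p = 0.0245), from counts that sum to 128 and 19. Reads of these related family members may be split between genes, which makes each of their values uncertain. Amino acid catabolism held 3 called higher of 35 and 0 lower (8.57%, against 5.63% of all genes), with a median of 0.28 (−0.01 with library totals alone). The called genes were Cps1, the glyoxylate enzyme Agxt (log2 fold change 0.57 ± 0.13 SE, edgeR adjusted p = 0.0434) and the tyrosine-degrading enzyme Fah (log2 fold change 0.49 ± 0.12 SE, edgeR adjusted p = 0.0442).

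With offsets Agxt (0.132) and Fah (0.0866) were not called. Cyp3a13, Ces2a, Agxt and Fah were lost without EE 2, EE 3 or MASH 1 (0.0513 to 0.152), all but Ces2a without MASH 2 (0.0617 to 0.131), and Agxt without EE 1 (0.0524) or MASH 3 (0.0716). Ces2b was lost without EE 3 (0.0624) or MASH 1 (0.0732). With the block, 12 drug-metabolism genes were called higher and 3 lower, and 16 amino acid genes higher and 1 lower.

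Genes that differ between male and female mouse liver, which follow the pattern of growth hormone release, had list medians of opposite sign with few calls. All 22 tested male-biased genes were positive (median 1.21), 14 were higher without overlap, against 17% of all genes, and 8 overlapped. Of the 22, 3 were called higher (Susd4, Cyp2d9 and Gstp1), or 13.6% against 5.63% of all genes. The count was 9 without MASH 2, 3 without EE 1 and 0 without any other single liver. The female-biased genes with enough counts (8 of 22 listed) had a median of −1.47 (−0.97 without MASH 3). Abcd2 was the 1 called, and lower (12.5%, against 5.63% of all genes). Of the 8, 1 gene was positive and 3 were lower without overlap, against 16.3% of all genes. Susd4, a complement regulator, was at 39.4, 64.8 and 46.8 CPM with EE and 17.2, 27.2 and 16.9 CPM in MASH (log2 fold change 1.30 ± 0.25 SE, edgeR adjusted p = 0.0347). Cyp2d9, a steroid 16 alpha-hydroxylase, was at 1990, 2370 and 2766 against 1117, 1684 and 1315 CPM (log2 fold change 0.79 ± 0.18 SE, edgeR adjusted p = 0.0393), and the glutathione transferase Gstp1 at 1371, 2338 and 2222 against 497, 893 and 588 CPM (log2 fold change 1.58 ± 0.28 SE, edgeR adjusted p = 0.033). Outside the list, C8b, a subunit of the complement membrane attack complex, rose from 116, 189 and 95.8 to 317, 552 and 356 CPM (log2 fold change 1.61 ± 0.33 SE, edgeR adjusted p = 0.0468). In Susd4, Cyp2d9 and Gstp1, MASH 2 was the highest of the MASH livers.

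Within the MASH group the male-biased list was itself uneven, with medians of −0.26, 0.76 and −0.60 log2 units from the group mean in MASH 1, MASH 2 and MASH 3, against 0.93, 1.30 and 1.12 with EE. Selenbp2, a selenium-binding protein, showed this spread at 871, 2406 and 1197 CPM with EE and 78, 454 and 89.2 CPM in MASH (log2 fold change 2.85 ± 0.93 SE, edgeR adjusted p = 0.138). It was called with the block (0.0219), as were 10 of the 22 genes. Susd4 (0.0842), Cyp2d9 (0.0783), Gstp1 (0.0553) and C8b (0.0651) were not called with offsets. They were lost without EE 2, EE 3, MASH 1 or MASH 3 (0.0716 to 0.155), and C8b also without EE 1 (0.053). Of 16 genes of growth hormone signalling and insulin-like growth factors, 2 were called higher (12.5%, against 5.63% of all genes) and 6 were negative. The list median of 0.24 became −0.04 with library totals alone. Igfbp2, a binding protein of these factors, was 1 of the 2 called, at 261, 383 and 327 against 178, 162 and 157 CPM (log2 fold change 0.96 ± 0.14 SE, edgeR adjusted p = 0.0225), though not without EE 2, EE 3, MASH 1 or MASH 2 (0.0516 to 0.0602). Cyp2d9 and Gstp1 have close paralogs, so their values are uncertain.

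Interferon-stimulated genes, the antiviral program, held 6 called higher and 0 lower of 32 (18.8%, against 5.63% of all genes). The median was 0.28 (−0.02 with library totals alone), and 11 were negative. Irf7, the transcription factor that amplifies type I interferon, was at 45.5, 62.8 and 70.8 CPM with EE and 28, 29.2 and 33.9 CPM in MASH (log2 fold change 0.97 ± 0.16 SE, edgeR adjusted p = 0.0271). Ifi27 was at 134, 175 and 196 against 83.2, 106 and 86.7 CPM (log2 fold change 0.87 ± 0.15 SE, edgeR adjusted p = 0.0291), and Bst2, or tetherin, which holds budding virus at the cell surface, at 115, 127 and 146 against 73.4, 83.4 and 90.2 CPM (log2 fold change 0.65 ± 0.12 SE, edgeR adjusted p = 0.0291). Oas1a, an oligoadenylate synthetase with close paralogs, rose from 4.71, 5.34 and 6.51 to 9.19, 10.6 and 12.2 CPM (log2 fold change 0.95 ± 0.18 SE, edgeR adjusted p = 0.0291). Other genes that respond to interferons went down. Ubd, a ubiquitin-like protein induced by interferon gamma, was at 0.277, 0.41 and 0.248 CPM with EE and 1.38, 1.31 and 3.68 CPM in MASH (log2 fold change −2.75 ± 0.54 SE, edgeR adjusted p = 0.0309), and Samd9l fell from 14.3, 13.8 and 13.7 to 7.75, 6.09 and 6.45 CPM (log2 fold change −1.04 ± 0.14 SE, edgeR adjusted p = 0.0181). Neither is on the list, and both were named by their rank. Irf7, Bst2 and Oas1a were lost without EE 2, EE 3, MASH 1 or MASH 2 and Ifi27 without the first 3 of these (0.0685 to 0.0924). Ubd and Samd9l were lost without EE 2, EE 3 or MASH 1 (0.0545 to 0.0953) and Ubd without EE 1 (0.0553) or with offsets (0.0505). With the block 12 of the 32 were called higher.

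Ribosomal protein genes had the highest share of called members among the functional lists, with 20 of 43 higher and 0 lower (46.5%, against 5.63% of all genes). Of the 43, 42 were positive (median 0.38). With library totals alone the median was 0.09 and 0 were called, and 0 were called without EE 2, EE 3, MASH 1 or MASH 2, 13 without MASH 3 and 19 without EE 1. Each change was small. Rplp0, a protein of the ribosomal stalk, was at 452, 518 and 473 CPM with EE and 322, 333 and 310.2 CPM in MASH (log2 fold change 0.58 ± 0.10 SE, edgeR adjusted p = 0.0245), Rplp1, its partner, at 279, 311 and 269.8 against 192, 195 and 195 CPM (log2 fold change 0.56 ± 0.09 SE, edgeR adjusted p = 0.0245), and Rps15 at 202, 219.7 and 193 against 144, 141 and 146 CPM (log2 fold change 0.51 ± 0.09 SE, edgeR adjusted p = 0.0285). Of 37 subunits of oxidative phosphorylation, 4 were called higher (10.8%, against 5.63% of all genes). Without overlap 28 were higher, against 17% of all genes. The median was 0.25, and −0.04 with library totals alone, which called 0 higher and 3 lower. The called subunits included Ndufb10 (log2 fold change 0.47 ± 0.09 SE, edgeR adjusted p = 0.0312) and Ndufs7 (log2 fold change 0.42 ± 0.09 SE, edgeR adjusted p = 0.0336) of complex I. The proteasome list had 2 of 34 called higher, a share near the background, including the catalytic subunit Psmb6 (log2 fold change 0.40 ± 0.08 SE, edgeR adjusted p = 0.0338). Its members were positive in 31 cases and higher without overlap in 22, with a median of 0.205 (−0.0858 with library totals alone). The 13 mitochondrially encoded genes held 0 calls by edgeR, DESeq2 or limma voom, 2 at an unadjusted p below 0.05 and a median of −0.05, with 3 called higher after offsets.

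The ribosomal protein transcripts are short, with a median length of 658 bases against 1405 over all tested genes, and their median GC content was 52.6% against 50.5%. Fold change moved with both properties over all genes. The median log2 fold change was −0.30 in the lowest of 5 equal groups by transcript GC content (31.9% to 45.1%) and 0.10 in the highest, and it was 0.07 in the shortest of 5 groups by length and −0.18 in the longest. The lowest GC group held 184 of the called lower genes and 15 of the called higher ones. With offsets for both properties, 1 ribosomal protein gene and 0 subunits of oxidative phosphorylation were called, and the list medians were 0.29 and 0.14. Rplp0 (0.0701), Rplp1 (0.0774), Rps15 (0.0895), Ndufb10 (0.0800), Ndufs7 (0.141) and Psmb6 (0.103) were then not called, nor were they without EE 2, EE 3, MASH 1 or MASH 2 (0.0583 to 0.118). With the block 33 ribosomal genes, 17 subunits of oxidative phosphorylation and 15 of the proteasome were called higher. The part of transcript length and GC content in these differences was not tested beyond the offsets.

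**Figure D4:**
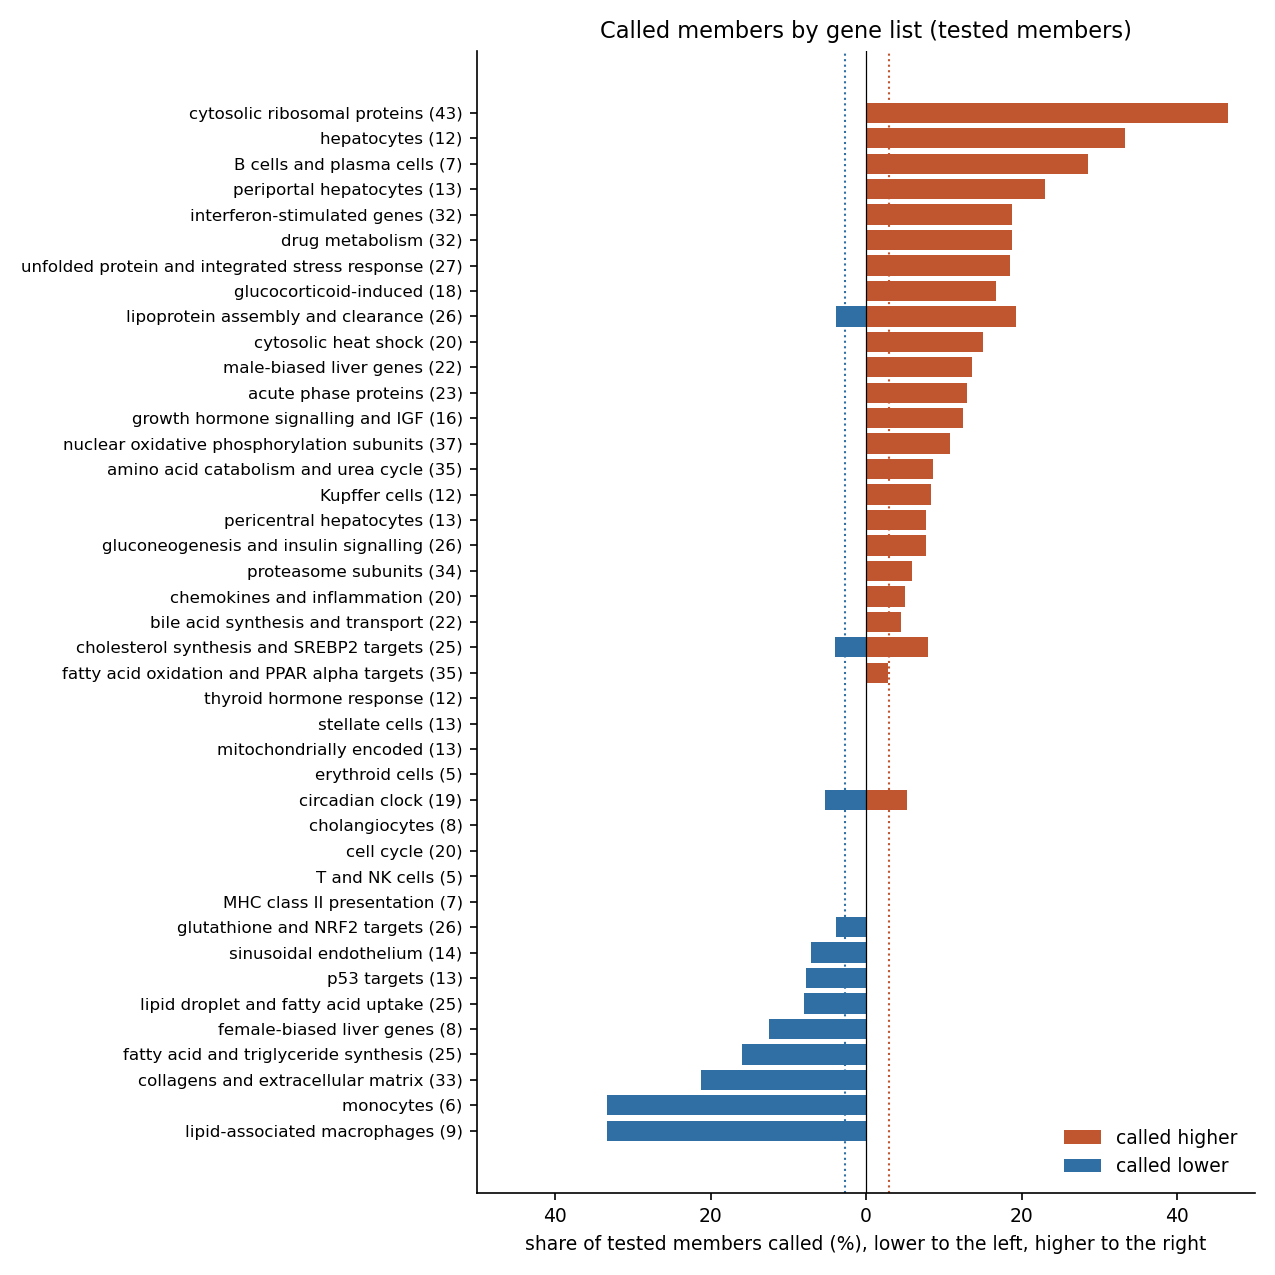
Share of tested members called (horizontal axis, percent) for each gene list with at least 5 tested members (rows, with the number tested), higher with EE to the right in orange and lower to the left in blue. Dotted lines mark the shares over all tested genes, 2.95% higher and 2.68% lower. Ribosomal proteins reach furthest to the right, and lipid-associated macrophages and monocytes furthest to the left.

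Some markers of infiltrating macrophages were called lower in EE livers. Of 9 markers of lipid-associated macrophages, the lipid-laden macrophages of fatty liver, 3 were called lower and 0 higher (median −0.71), and of 6 monocyte markers 2 were called lower (median −0.65). The share called was 33.3% in each of these short lists, against 5.63% of all genes. Summed over the 9 markers the levels overlapped, at 431 to 459 CPM with EE and 382 to 542 CPM in MASH, most of it from the lysosomal protease Ctsd (log2 fold change 0.02 ± 0.14 SE, edgeR adjusted p = 0.930). Fabp5, a fatty acid binding protein on the same list, was higher without being called, at 17.8, 42.8 and 13.6 CPM with EE and 9.53, 9.27 and 8.2 CPM in MASH (log2 fold change 1.46 ± 0.45 SE, edgeR adjusted p = 0.112), and DESeq2 called it (0.000952). Gpnmb, a transmembrane glycoprotein of such macrophages, was at 0.609, 0.527 and 0.31 CPM with EE and 2.77, 3.17 and 9.13 CPM in MASH, 10.3-fold lower (log2 fold change −3.36 ± 0.59 SE, edgeR adjusted p = 0.0295). MASH 3 had the highest level of Gpnmb, and without that liver the log2 fold change was −2.59. Controls were at 0, 0.0912 and 0.384 CPM. The macrophage elastase Mmp12 fell from 3.33, 2.76 and 4.22 to 1.05, 0.996 and 0.31 CPM (log2 fold change −2.11 ± 0.39 SE, edgeR adjusted p = 0.0291), and the lysosomal tetraspanin Cd63 from 8.71, 6.29 and 8.45 to 3.38, 5.39 and 3.78 CPM (log2 fold change −0.90 ± 0.22 SE, edgeR adjusted p = 0.04995).

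Ccr2, the chemokine receptor by which monocytes leave the marrow, was at 0.498, 0.234 and 0.124 CPM with EE and 1.08, 1.99 and 2.62 CPM in MASH (log2 fold change −2.69 ± 0.52 SE, edgeR adjusted p = 0.0295), and its ligand Ccl2 at 0.775, 0.82 and 0.248 against 1.74, 1.04 and 2.15 CPM, also apart but not called (log2 fold change −1.40 ± 0.45 SE, edgeR adjusted p = 0.0923). The fractalkine receptor Cx3cr1 fell from 1.49, 1.67 and 2.79 to 0.72, 0.527 and 0.31 CPM (log2 fold change −1.92 ± 0.40 SE, edgeR adjusted p = 0.0341). These levels are near 1 CPM, so that the counts behind them are small (15 for Ccr2 and 25 for Gpnmb over the EE livers). Of 12 markers of resident Kupffer cells 1 was called higher (8.33%, against 5.63% of all genes called). Without overlap 2 were higher, against 17% of all genes. The median of these markers was 0.21 (−0.09 with library totals alone). The difference from the macrophage list was not tested. The called marker was Clec4f, a lectin of Kupffer cells, at 152, 125 and 173 against 104, 109 and 99.9 CPM (log2 fold change 0.53 ± 0.12 SE, edgeR adjusted p = 0.0428).

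Gpnmb, Mmp12, Cd63, Ccr2 and Cx3cr1 were lost without EE 2, EE 3 or MASH 1 (0.0513 to 0.152), all but Gpnmb without MASH 2 (0.0564 to 0.0819), Gpnmb and Cd63 without EE 1 (0.0553 and 0.0887), and Cd63, Ccr2 and Cx3cr1 without MASH 3 (0.0891, 0.0505 and 0.062). Ccr2 was not called with offsets (0.0509). Clec4f was lost in each fit of 5 livers (0.0676 to 0.128) and with offsets (0.0947).

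Collagens and other matrix genes were called lower in 7 of 33 cases and higher in 0 (21.2%, against 5.63% of all genes). The median was −0.57, with 29 negative and 18 lower without overlap, against 16.3% of all genes. The calls fell to 0 without EE 2, EE 3 or MASH 1. Summed over the 33 genes the levels did not fall, at 2999, 3195 and 3122 CPM with EE and 2789, 2537 and 3073 CPM in MASH. Col1a1, the main fibrillar collagen of scar tissue, was at 5.65, 5.62 and 3.84 CPM with EE and 15.9, 11.6 and 23.9 CPM in MASH (log2 fold change −1.76 ± 0.29 SE, edgeR adjusted p = 0.0285). Col3a1, its fibrillar partner, was at 18.6, 19.2 and 13.4 against 41.4, 30.8 and 55.5 CPM (log2 fold change −1.32 ± 0.23 SE, edgeR adjusted p = 0.0295). Both lay below the controls (12.2, 8.39 and 9.26 CPM for Col1a1) in EE livers, and MASH 3 was highest. The basement membrane genes Col4a1 (log2 fold change −0.74 ± 0.15 SE, edgeR adjusted p = 0.0318) and Nid1 (log2 fold change −0.85 ± 0.17 SE, edgeR adjusted p = 0.03) fell less, and Lum, Loxl1 and Sparc were the remaining called members.

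Markers of the cells that make this matrix were not called. Of 13 stellate cell markers 0 passed edgeR or limma voom and 2 passed DESeq2, with 5 at an unadjusted p below 0.05, 11 negative and a median of −0.43 (−0.25 without EE 3, −0.19 without MASH 3). The proteoglycan decorin (Dcn) was at 98.9, 93 and 64.5 CPM with EE and 129, 127 and 114 CPM in MASH (log2 fold change −0.53 ± 0.15 SE, edgeR adjusted p = 0.0746), and Rgs5, a regulator of G protein signalling in pericytes, at 14.8, 11.4 and 10.2 against 19.1, 18.7 and 16.9 CPM (log2 fold change −0.58 ± 0.15 SE, edgeR adjusted p = 0.0547). Both were called with the block (0.00804 and 0.0102). Summed over the 13 markers the levels overlapped, at 287.8 to 379.0 CPM with EE and 356.2 to 396.6 CPM in MASH. The part of stellate cell number in the collagen result was not tested. With the block Col3a1 was not called (0.0764), and the list then held 9 lower and 2 higher. Col1a1, Col3a1, Col4a1 and Nid1 were lost without EE 2, EE 3 or MASH 1 (0.0545 to 0.104), and Nid1 also without EE 1, MASH 2 or MASH 3 (0.051, 0.0522 and 0.0515).

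Other cell types gave at most 2 calls. Lyve1, a hyaluronan receptor of sinusoidal and lymphatic endothelium, was called lower (log2 fold change −1.18 ± 0.26 SE, edgeR adjusted p = 0.0393). It was the 1 called of 14 endothelial markers (7.14%, against 5.63% of all genes), whose median was −0.22 (near 0 without EE 2). The immunoglobulin constant genes Igha, at 2.05, 6.44 and 3.47 CPM with EE and 0.769, 1.22 and 0.887 CPM in MASH (log2 fold change 2.04 ± 0.43 SE, edgeR adjusted p = 0.0358), and Igkc (log2 fold change 1.18 ± 0.25 SE, edgeR adjusted p = 0.0357) were called higher. They were among 7 markers of B and plasma cells (28.6% called, against 5.63% of all genes), of which 4 were negative. All 8 cholangiocyte markers were negative (median −0.84, −0.49 without MASH 1), with 0 calls by edgeR, 3 at an unadjusted p below 0.05 and 1 call by DESeq2. All 7 MHC class II genes were negative too (median −0.72, −0.38 without MASH 3), with 0 calls by edgeR, 3 at an unadjusted p below 0.05 and 2 by DESeq2. Lyve1, Igha and Igkc were lost without EE 2, EE 3, MASH 1 or MASH 2 (0.0692 to 0.125), Lyve1 and Igkc without EE 1 (0.0746 and 0.0635), and Igha and Igkc without MASH 3 (0.075 and 0.0639) or with offsets (0.0505 and 0.0545). Of 20 cell cycle genes edgeR called 0 (4 at an unadjusted p below 0.05, 1 by DESeq2), and of 12 thyroid hormone response genes it called 0 as well (3 and 1).

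**Figure D5:**
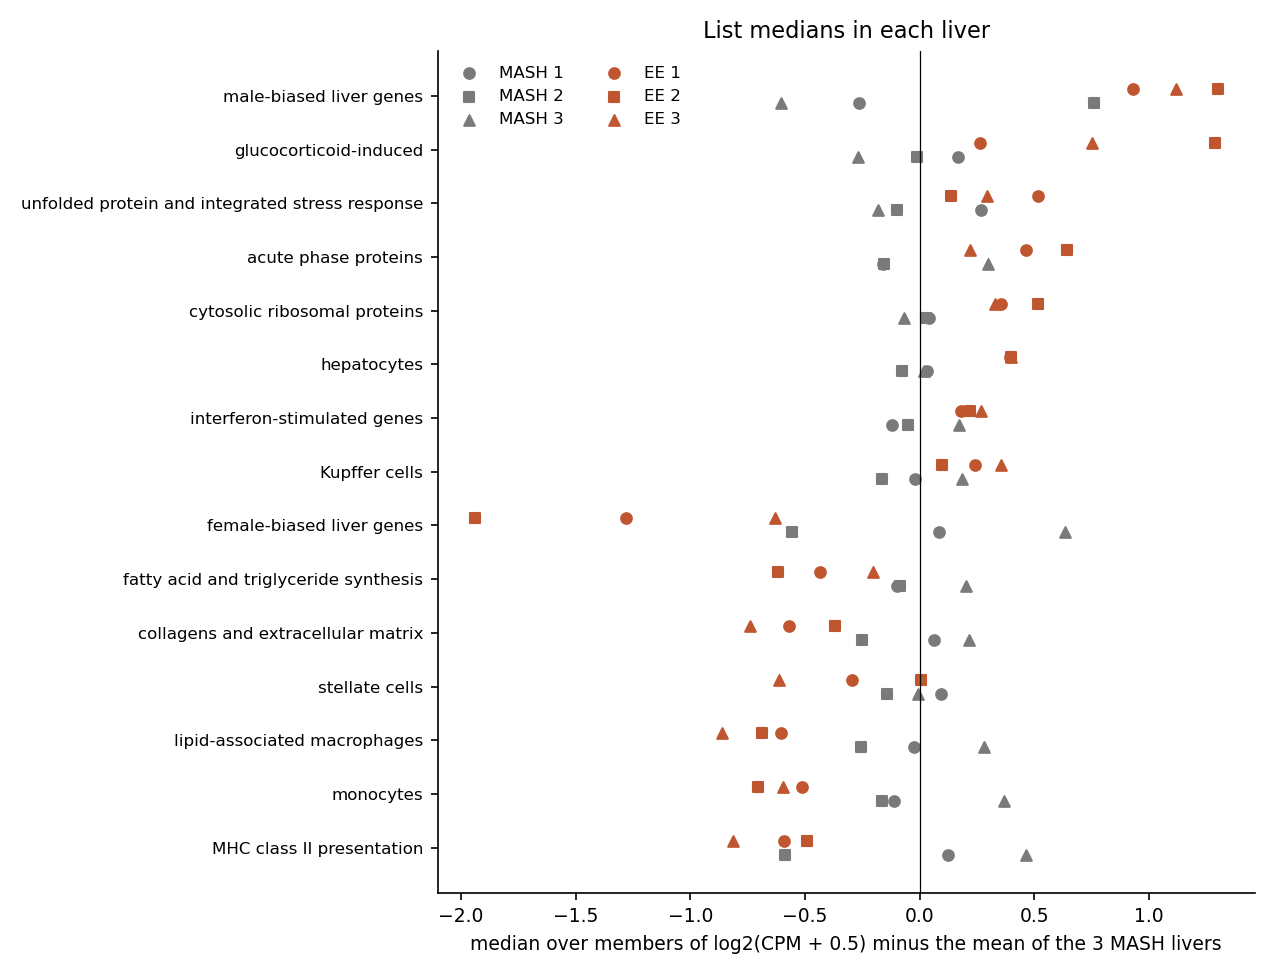
Median over the members of selected gene lists (rows) of log2(CPM + 0.5) minus the mean of the 3 MASH livers (horizontal axis, log2 units), 1 point per liver, with MASH in grey and EE in orange and marker shape for the replicate number. EE livers lie to the right for hepatocyte and ribosomal protein lists and to the left for matrix, monocyte and lipid-associated macrophage lists, while MASH 2 lies within or near the EE range for the male-biased, female-biased and MHC class II lists.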

How the data were processed

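Poly(A) RNA of 12 livers in 4 groups of 3 was measured. The authors deposited 1 table of expected counts, not scaled to a common total, for 28036 Ensembl genes. The submitters' processing notes name fastp and the genome build GRCm39. The sources used here name no aligner, counter, annotation or strand setting, so overlapping antisense genes and close paralogs are uncertain. Counts were rounded to whole numbers. Symbols, transcript lengths and GC content came from a GRCm38 annotation, which named 22603 of the identifiers.

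The 6 EE and MASH livers were compared by the two-sided quasi-likelihood F test of edgeR 4.0.16 (R 4.3.3), with robust estimation, filterByExpr, TMM scaling factors (trimmed mean of M values) and 4 residual degrees of freedom. A gene was called at a Benjamini-Hochberg adjusted p below 0.05 over the 13248 tested genes. Dividing a log2 fold change by the square root of F gave its SE. Before scaling, 1 CPM is 17.3 to 21.0 counts in these libraries. Control levels were brought to the scale of the 6 libraries by a factor of 1.08.

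The comparison, its genes and the 47 gene lists (29 functional and 18 of cell types, 859 distinct symbols with the fixed genes, 778 tested) were chosen with earlier results of these data known, and lists were given no test. Genes were named by rule, as the 15 highest and 15 lowest fold changes among called genes that do not overlap and reach a mean of 1 CPM, leaving out unnamed models and pseudogenes, the 10 smallest p each way, up to 4 called members of each list, the genes called by all 3 tools and in every fit of 5, and fixed genes of lipid metabolism, fibrosis, inflammation and hormone response. Il6ra, Stat3, Cebpb, C2, Tfrc, Hspa5, Ctsd and Fabp5 were named after their values were seen, as were list members given by symbol alone. Some genes that the rule allows are left out.

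Replicate numbers come from the titles, which do not say what they share. Deviations from the group means correlated at 0.213, 0.185 and 0.176 between livers of the same number and at −0.109 to −0.0655 between others. Deviations within a group cancel out by construction, so the negative values follow from the positive ones and add nothing to them. The block was read as a pairing found in the data and not given by the labels. Alternatives were limma voom 3.58.1 (also with quality weights), DESeq2 1.42.0, 3 other scalings, other filters, a fit without robust estimation, a fold threshold, a replicate block, offsets for length and GC content, fits of all groups and each left-out library. The fits were also run on simulated data, and no result given here rests on those runs.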

Additional observations from a re-analysis of the deposited data

How the results depend on the processing

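The 746 called genes (391 higher, 355 lower) became 1 (1 higher, 0 lower) in the fit of all 12 libraries and 67 (29 and 38) in that fit without control 1 and resmetirom 2. With the replicate block 2745 were called (1400 and 1345), with length and GC offsets 479 (233 and 246), and with both 1732 (847 and 885). Scaling by library totals alone gave 3043 (125 and 2918), DESeq2 1495 (755 and 740, with 260 genes given no adjusted p), no low-count filter 2146 (910 and 1236), limma voom 552 (326 and 226), and a log2 fold change of at least 1 left 171 (52 and 119). Fits that left out 1 library called 11 to 786 genes, 6 to 365 of them higher and 5 to 421 lower. The remaining counts lay within 1.5 times of the first, with relative log expression scaling, upper quartile scaling, a mean of 1 CPM, voom with quality weights for both directions, or no robust estimation. The cause of these differences was not tested, beyond the fewer libraries in the last fits. The block kept 737 of the 746 genes and DESeq2 739.

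Ctsd and Fabp5 are left out of the counts in this paragraph. Of the other 101 genes reported with values, 93 were called, and none changed sign under any alternative run. The number no longer called was 92 in the fit of all 12 libraries, 75 in that fit without the 2 libraries, 42 with offsets, 24 with library totals alone, 14 with limma voom, 4 with the block and 0 with DESeq2 or relative log expression. Without EE 1, EE 2, EE 3, MASH 1, MASH 2 or MASH 3 it was 16, 84, 80, 78, 62 and 29. The block changed no call among these genes other than those given beside each result. With 3 livers a group and 4 residual degrees of freedom, the spread of each gene rests partly on that of all others. Levels near 1 CPM rest on about 20 counts a library.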

Other observations

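Some called genes outside the lists were picked after their values were seen, and each stands for itself, with no pathway counted. Il6ra, a subunit of the interleukin 6 receptor, was at 42.3, 64.8 and 66.6 CPM with EE and 24.4, 24.3 and 29.4 CPM in MASH (log2 fold change 1.15 ± 0.18 SE, edgeR adjusted p = 0.0245). The transcription factor Stat3 was at 124, 201 and 128 CPM with EE and 81.3, 78 and 85 CPM in MASH (0.89 ± 0.18, 0.0356). Cebpb, a basic leucine zipper transcription factor, was at 90.8, 167 and 142 CPM against 51.8, 74.6 and 53.7 CPM (1.15 ± 0.25, 0.0456). The kinase Pim3, named by its rank, was at 67.2, 78.8 and 93.1 CPM against 31.7, 38.2 and 22 CPM (1.38 ± 0.21, 0.0245). In each of these genes the lowest EE liver lay above the highest MASH liver, and EE 2 was highest for Stat3 and Cebpb. Complement factor C2, a plasma protease, was at 98.9, 153 and 129 CPM against 58.7, 61.8 and 66.1 CPM (1.03 ± 0.15, 0.0226). Nfkbia, the inhibitor of NF-kappa B, was the 1 called gene of 20 chemokine and inflammation genes (5%, against 5.63% of all genes), at 29.3, 32.1 and 37.7 CPM against 23.1, 17.9 and 20.2 CPM (0.69 ± 0.14, 0.031), while the median of that list was −0.33. Stat3 (0.0717), Cebpb (0.112) and Nfkbia (0.0505) were not called with length and GC offsets. All 6 were lost without EE 2, EE 3 or MASH 1 (0.0602 to 0.147), all but Pim3 without MASH 2 (0.0554 to 0.105), and Stat3 and Cebpb without MASH 3 (0.066 and 0.1).

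Further called genes of low level or of other pathways were lower with EE. Rad51b, a DNA repair protein, was at 0.609, 0.234 and 0.248 CPM with EE and 3.64, 1.72 and 3 CPM in MASH (−2.89 ± 0.45, 0.0245), from 19 counts over the EE livers, and was lost without EE 2, EE 3 or MASH 1 (0.0685 to 0.079). The p53 target Ccng1, a cyclin G, was at 22.6, 16.8 and 14.8 CPM against 31.4, 31.2 and 26.6 CPM (−0.71 ± 0.16, 0.0393). It was the 1 called of 13 p53 targets (7.69%, against 5.63% of all genes), of which 12 were negative. The sulfiredoxin Srxn1, an antioxidant target of NRF2, was at 35.6, 30.5 and 33.3 CPM against 41.9, 46.5 and 56.2 CPM (−0.54 ± 0.13, 0.0439), the 1 called of 26 glutathione and NRF2 genes (3.85%, against 5.63% of all genes). Ccng1 was not called with offsets (0.135), Ccng1 and Srxn1 were lost without EE 2, EE 3, MASH 1 or MASH 2 (0.0827 to 0.139), and Srxn1 also without EE 1 (0.0549) or MASH 3 (0.0688).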
